A study of Homo sapiens with 6 samples.

Results

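A set of 58 genes of vesicle transport between the endoplasmic reticulum (ER) and the Golgi was followed in AsPC-1, an established line of human pancreatic cancer cells. The genes were chosen by name, as listed members of the COPII coat, the COPI coat, their cargo receptors, GTPases, tethers and SNAREs. Their list, like the promoter motifs below, was drawn up with earlier results of these data known. All 58 were found among the 26228 rows of the deposited expression table, and all 58 passed the filter on low values that left 11471 genes for testing. A group of 3 libraries came from DON-treated cells and another group of 3 from vehicle-treated cells. DON, or 6-Diazo-5-oxo-l-norleucine, resembles glutamine and blocks enzymes that use it. All 6 libraries are of the same line, and treatment lasted 24 h in medium without serum in each group. Neither the dose of DON nor whether replicates were separate cultures is stated. The p-values therefore measure only the spread among these 6 libraries, part of which may be technical.

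Proteins made in the ER leave it in vesicles coated by COPII. The GTPase SAR1 starts the coat, SEC23 and SEC24 form its inner layer and choose cargo, and SEC13 with SEC31 forms the outer cage. Cargo receptors in the membrane link soluble proteins to the coat. COPI, a coat of coatomer subunits recruited by ARF GTPases, carries escaped ER proteins and the receptors themselves back, and KDEL receptors capture ER chaperones for that return. Tethers catch vesicles at the Golgi and SNAREs fuse them. Genes of this route are known targets of the unfolded protein response, whose transcription factors XBP1 and ATF6 act when the ER is loaded with unfolded proteins.

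Levels are given in FPKM, which scale fragment counts to transcript length and to the library's total, so they can be compared between genes. FPKM values carry no read counts, and the absolute depth is unknown. Summed FPKM ranged from 525200 to 556950 per library. FPKM are shares of a library, so fewer transcripts of a gene per cell and more RNA of other genes cannot be told apart. The members were well expressed. Their mean levels had a median of 49.5 FPKM and ran between 7.29 and 369 FPKM, against a median of 12.9 FPKM over all tested genes. Of 9 epithelial and tumour markers, 7 had a value in every library and all 7 were expressed, with summed levels of 3187 to 4239 FPKM in DON and 4021 to 4786 FPKM in vehicle. Most of that sum is EPCAM and KRT19, which were not called, while MUC1, CEACAM6 and CLDN4 were called lower (log2 fold changes -1.08, -0.92 and -0.65). The markers of acinar cells (5 genes) and endothelial cells (3 genes) stayed at or below 0.230 FPKM, and those of endocrine cells (3 genes) at or below 1.11 FPKM. The 6 fibroblast markers summed to 88.8 to 124 FPKM in DON and 141 to 172 FPKM in vehicle, nearly all of it LUM, called lower at 88.1 to 124 FPKM in DON and 141 to 171 FPKM in vehicle, and the other 5 stayed at or below 0.555 FPKM. The 5 leukocyte markers summed to 26.6 to 40.6 FPKM in DON and 17.5 to 28.8 FPKM in vehicle, nearly all of it CD68, at 25.9 to 40.2 FPKM in DON and 16.6 to 28.0 FPKM in vehicle, with PTPRC and the other 3 at or below 0.755 FPKM. The part of these markers in the results was not tested.

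Libraries also differed within groups. The second principal component of the log2 values held 19.7% of the variance and parted DON 1, vehicle 1 and vehicle 2 from DON 2, DON 3 and vehicle 3. The correlation across 10451 genes between a library's deviation from its group mean and the GC content of the transcript was 0.52, 0.24 and 0.31 in the first set and -0.44, -0.43 and -0.42 in the second (Spearman's rho, as a description). Since every set holds libraries of each treatment, the comparison was also made within each set.

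Most members were higher in DON. Of the 58 genes, 34 were called higher, 3 were called lower and 21 were not called by limma on log2(FPKM + 1), with a Benjamini-Hochberg adjusted p below 0.05 over all 11471 genes. That is 58.6% called higher and 5.17% called lower, where 18.3% of all tested genes were called higher and 20.6% lower. Without DON 2 the member counts were 23 and 2, beside 10.6% of all tested genes higher and 12.9% lower. The median log2 fold change was 0.46 over the members and -0.012 over all tested genes. In 38 members every DON library lay above every vehicle library, which was so for 24.9% of all tested genes, and in 4 members every DON library lay below, which was so for 26.5%. A log2 fold change of at least 1, with a call, was found for 8 members, and 2.83% of all tested genes were called at least that much higher. The 8 were SEC24D, STX5, MCFD2, SEC31A, TFG, TMED7, LMAN1 and SEC23B, so they include coat subunits, cargo receptors and a SNARE.

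**Figure D1:**
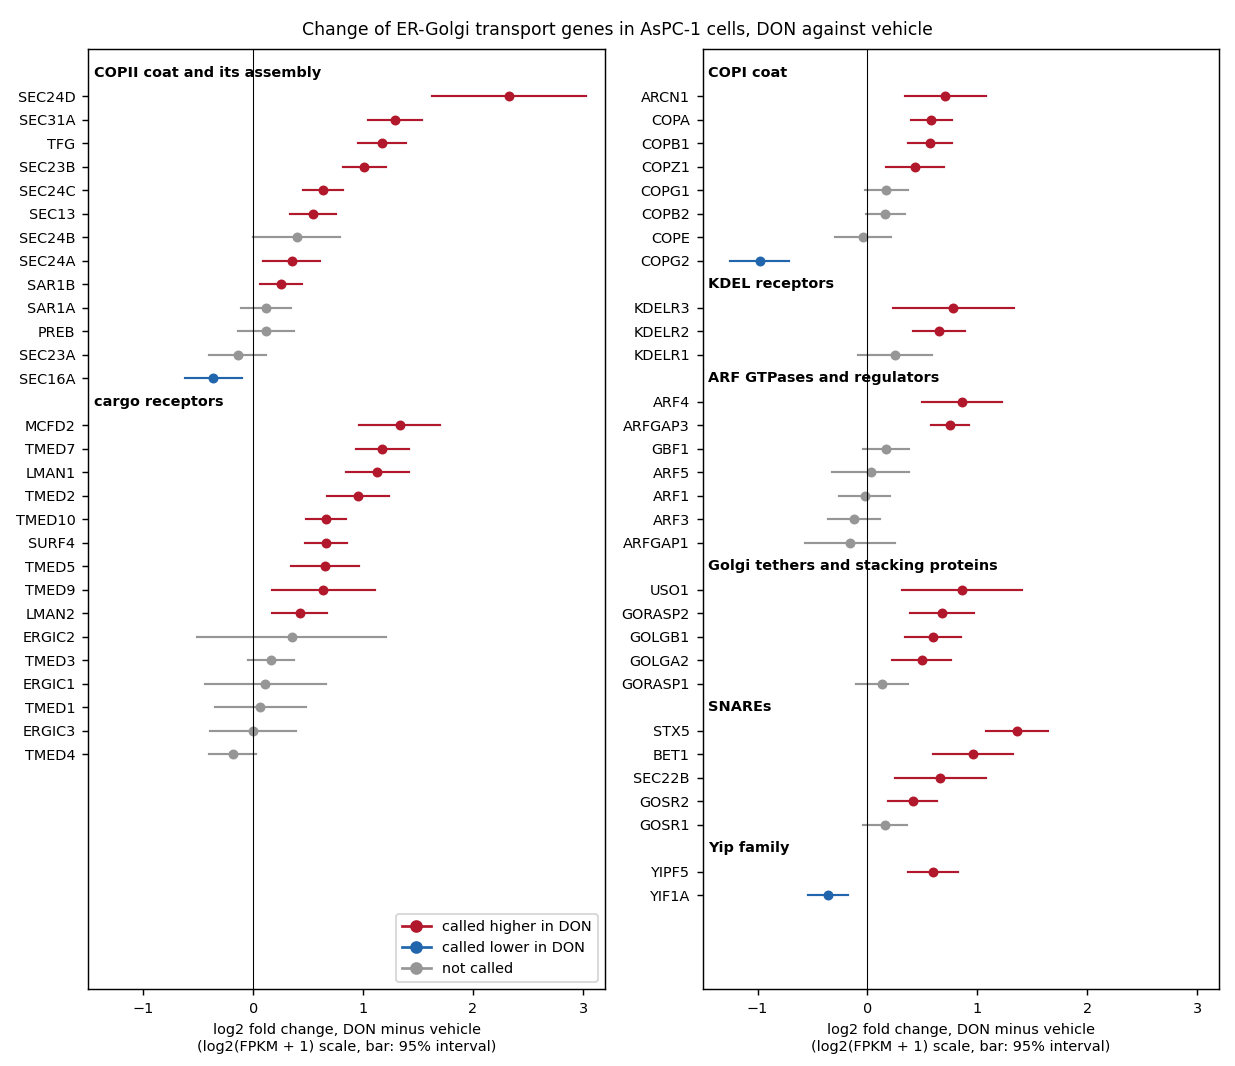
Log2 fold change of each of the 58 genes, DON minus vehicle, on the log2(FPKM + 1) scale (horizontal axis), with 95% intervals as bars and genes grouped by role (vertical axis). SEC24D lies furthest to the right at 2.32, COPG2 furthest to the left at -0.98, and all 37 called genes have intervals that leave out 0.

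Every role group held called members. Over all tested genes 18.3% were called higher and 20.6% lower, so 1 or 2 calls in a small group show little. Of the COPII coat and its assembly factors 8 of 13 were higher and 1 was lower (median log2 fold change 0.40). Cargo receptors had 9 of 15 higher and 0 lower (median 0.64). The COPI coat had 4 of 8 higher and 1 lower (median 0.30), and KDEL receptors had 2 of 3 higher and 0 lower (median 0.65). Golgi tethers and stacking proteins had 4 of 5 higher (median 0.59), as did the SNAREs (median 0.66). The ARF GTPases and their regulators stood closest to 0, with 2 of 7 higher and 0 lower (median 0.028). The Yip family, of 2 genes, had 1 higher and 1 lower. These are counts and medians over few genes, and the difference between role groups was not tested.

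Promoter sequences are shown because 34 of the members were higher together. RefSeq windows of 250 bases before to 50 after the transcription start (GRCh38.p14) matched 50 of the 58 members. No window was at hand for SEC24D, ERGIC1, TMED4, TMED9, KDELR2, ARF4, ARFGAP1 and USO1. A gene with several starts has several windows, on average 1.3 for a member and 1.45 for a tested gene, and counts as holding a motif where any window does, on either strand. The element TGACGTGG, bound by XBP1 and ATF6 and known as the UPRE, was found in 10 of the 50 members (20%), against 1.21% of 8647 tested genes and 0.927% of all 27305 genes with a window. The 10 were SEC23A, SEC24A, SEC16A, COPA, COPB1, COPB2, KDELR3, ARF1, GBF1 and STX5. ACGTGGC, the core of the Golgi stress response element, was found in 18 of the 50 (36%), against 5.90% of tested genes. It overlaps the UPRE wherever a C follows TGACGTGG, and 21 of the 50 members held at least 1 of them, against 6.51% of tested genes. Of 59 other genes of this route with a window, from the list read further below, 3 held the UPRE (5.08%) and 11 the Golgi element (18.6%). The ER stress element (CCAAT, 9 bases of any kind, CCACG), the ER stress element II (ATTGG, 1 base, CCACG) and the amino acid response sequence TGATGCAA were in 0 of the 50 members, with 0.173%, 0.1503% and 0.671% of tested genes holding them.

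Matches stood both in members that rose and in members that did not. The UPRE was in 5 of 29 members called higher and in 5 of the 21 others with a window, and the Golgi element in 11 of 29 and 7 of 21. Members with a UPRE had a median log2 fold change of 0.26, and members without it 0.46. For the Golgi element the order was the reverse, with 0.59 in members that held it and 0.42 in members without it. Neither difference was tested. The strongest riser among the 10 was STX5, at 1.36, and the lowest was SEC16A, at -0.36. A match says only that these letters are in the window.

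Windows of 6 UPRE holders, those with the largest changes among called genes, are printed from 200 bases before to 30 after the start, 5′ to 3′ along the gene, with matches to the UPRE and the Golgi element in capitals on whichever strand they lie. STX5 is at chr11:62832022-62832251 on the minus strand, KDELR3 at chr22:38467896-38468125 on the plus strand and COPA at chr1:160343221-160343450 on the minus strand. COPB1 is at chr11:14499782-14500011 on the minus strand, SEC16A at chr9:136484711-136484940 on the minus strand and SEC24A at chr5:134648585-134648814 on the plus strand (GRCh38.p14, RefSeq).
STX5: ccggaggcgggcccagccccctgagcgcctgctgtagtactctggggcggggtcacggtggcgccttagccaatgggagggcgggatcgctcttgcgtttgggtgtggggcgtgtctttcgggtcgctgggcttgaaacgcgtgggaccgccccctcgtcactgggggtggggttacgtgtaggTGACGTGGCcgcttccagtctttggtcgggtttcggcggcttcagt
KDELR3: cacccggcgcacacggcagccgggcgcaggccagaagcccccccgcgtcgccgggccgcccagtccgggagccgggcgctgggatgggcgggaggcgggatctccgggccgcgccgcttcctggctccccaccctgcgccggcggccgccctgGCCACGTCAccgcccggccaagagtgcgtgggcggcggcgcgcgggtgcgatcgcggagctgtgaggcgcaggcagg
COPA: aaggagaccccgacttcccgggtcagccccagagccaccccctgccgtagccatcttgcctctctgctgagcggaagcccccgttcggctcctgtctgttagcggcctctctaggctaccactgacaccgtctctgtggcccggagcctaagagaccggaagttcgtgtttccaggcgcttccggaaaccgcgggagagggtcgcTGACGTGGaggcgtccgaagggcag
COPB1: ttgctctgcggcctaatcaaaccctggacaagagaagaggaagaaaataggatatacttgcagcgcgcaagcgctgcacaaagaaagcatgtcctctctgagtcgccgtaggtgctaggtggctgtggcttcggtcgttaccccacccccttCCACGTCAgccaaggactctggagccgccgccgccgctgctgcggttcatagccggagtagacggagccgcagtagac
SEC16A: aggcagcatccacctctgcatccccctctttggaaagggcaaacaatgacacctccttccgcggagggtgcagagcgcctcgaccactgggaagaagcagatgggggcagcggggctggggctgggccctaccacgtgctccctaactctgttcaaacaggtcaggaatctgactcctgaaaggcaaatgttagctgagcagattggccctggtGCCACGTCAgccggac
SEC24A: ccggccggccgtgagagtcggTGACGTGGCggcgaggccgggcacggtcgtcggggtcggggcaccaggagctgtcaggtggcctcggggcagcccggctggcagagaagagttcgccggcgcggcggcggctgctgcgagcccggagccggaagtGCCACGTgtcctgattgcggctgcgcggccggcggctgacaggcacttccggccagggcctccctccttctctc
In STX5 the UPRE lies between bases -16 and -9 from the start and runs on into the Golgi element. In KDELR3 the same joined site lies on the opposite strand, with its UPRE between -46 and -39. COPA carries the UPRE just inside the transcript, between bases 6 and 13, and SEC16A, which fell, has the joined site on the opposite strand at 15 to 23. The UPRE of COPB1 is on the opposite strand between -48 and -41, and SEC24A has a joined site that begins at -179 and a further Golgi element nearer the start.

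In the COPII coat the cage subunits, the inner coat genes SEC23B, SEC24C and SEC24D, and TFG rose most, and of the genes that start the coat SAR1B alone was called. SEC24D, a cargo-selecting subunit, had 14.9, 20.6 and 26.9 FPKM in the DON libraries, against 2.07, 2.98 and 5.25 FPKM in the vehicle libraries. Every DON library lay above every vehicle library, and within each group the third library was the highest. SEC24D rose 6.06-fold by ratio of means (log2 fold change 2.32 with SE 0.30, adjusted p = 0.00130 by limma), and its log2 fold change stood at percentile 99.8 of all tested genes. SEC31A, of the outer cage, had 50.3, 56.0 and 57.4 FPKM in the DON libraries, against 20.0, 20.9 and 24.4 FPKM in the vehicle libraries. The groups were far apart beside their own spread (log2 fold change 1.29 with SE 0.10, adjusted p = 0.000215 by limma). Its partner SEC13, which also serves in the nuclear pore, averaged 57.3 ± 1.75 FPKM in DON and 39.04 ± 3.14 FPKM in vehicle (SD, n = 3 each; log2 fold change 0.54 with SE 0.087, adjusted p = 0.00336 by limma). SEC31A thus rose 2.51-fold and SEC13 1.47-fold.

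TFG, which organises COPII carriers at ER exit sites, had 109, 119 and 121 FPKM in the DON libraries, against 48.0, 49.1 and 56.0 FPKM in the vehicle libraries. All DON values were more than 56.0 FPKM, the highest vehicle value (log2 fold change 1.17 with SE 0.093, adjusted p = 0.000204 by limma). SEC16A, the scaffold on which exit sites form, went the other way, with 14.7, 13.7 and 12.1 FPKM in the DON libraries, against 18.3, 19.0 and 15.7 FPKM in the vehicle libraries. It fell 1.31-fold (log2 fold change -0.36 with SE 0.11, adjusted p = 0.0380 by limma), and the groups did not overlap. SEC16A lost its call without vehicle 1, vehicle 2, DON 2 or DON 3 and with no filter on low values (adjusted p between 0.102 and 0.123).

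SAR1B, a GTPase that starts the coat, averaged 18.1 ± 0.962 FPKM in DON and 15.01 ± 0.435 FPKM in vehicle (SD, n = 3 each; log2 fold change 0.25 with SE 0.082, adjusted p = 0.0457 by limma). SAR1B lost its call without vehicle 1, vehicle 2, vehicle 3, DON 2 or DON 3 and with no intensity trend and with a replicate block (adjusted p between 0.0535 and 0.176). Its more abundant paralog SAR1A stood at 51.5 ± 2.06 FPKM in DON and 47.4 ± 4.67 FPKM in vehicle (log2 fold change 0.12, 95% interval -0.11 to 0.35, adjusted p = 0.359 by limma). PREB, the exchange factor that loads SAR1 with GTP, stood at 57.4 ± 3.92 FPKM in DON and 52.9 ± 5.79 FPKM in vehicle (log2 fold change 0.12, 95% interval -0.14 to 0.37, adjusted p = 0.415 by limma). It was called higher only when a term for the split of the libraries was added, among the alternatives run (adjusted p = 0.0366). In that fit 25.1% of all tested genes were called higher and 27.4% lower. The split was read from these same values, so adjusted p-values with its term, here and below, may be too small.

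Paralogs of the SEC23 and SEC24 families took other shares of their family's level in DON than in vehicle libraries. SEC23B had 70.5, 65.8 and 63.3 FPKM in the DON libraries, against 33.5, 33.2 and 30.8 FPKM in the vehicle libraries, a 2.05-fold rise (log2 fold change 1.01 with SE 0.083, adjusted p = 0.000228 by limma). SEC23A, its paralog in the same position of the coat, had 48.6, 56.3 and 58.9 FPKM in the DON libraries, against 56.6, 57.5 and 66.7 FPKM in the vehicle libraries. Its groups overlapped (log2 fold change -0.14, 95% interval -0.40 to 0.12, adjusted p = 0.341 by limma), and with the split term it was called lower (adjusted p = 0.0131). The ratio of SEC23A to SEC23B was 0.689, 0.855 and 0.929 in the DON libraries, against 1.69, 1.73 and 2.17 in the vehicle libraries. Thus SEC23A was the more abundant in every vehicle library and SEC23B in every DON library (difference in log2 ratio -1.18, exact two-sided permutation p = 0.1).

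Of the SEC24 genes, SEC24C was the most abundant in each library. It averaged 42.1 ± 1.69 FPKM in DON and 26.7 ± 0.780 FPKM in vehicle (log2 fold change 0.64 with SE 0.077, adjusted p = 0.00103 by limma), with 42.9% of its exon bases overlapped by the annotated transcript AC022400.8, so its level is uncertain. SEC24A averaged 13.5 ± 1.06 FPKM in DON and 10.4 ± 1.16 FPKM in vehicle (log2 fold change 0.35 with SE 0.11, adjusted p = 0.0401 by limma). SEC24A lost its call without vehicle 1, vehicle 2, DON 2 or DON 3 and with no filter on low values (adjusted p between 0.109 and 0.131). The exons of SEC24A and SAR1B overlap on opposite strands over 5.35% of those of SEC24A. SEC24B averaged 12.8 ± 1.56 FPKM in DON and 9.62 ± 2.22 FPKM in vehicle and was not called (log2 fold change 0.40, 95% interval 0.0018 to 0.79, adjusted p = 0.101 by limma), but passed with the split term, with a replicate block and without vehicle 3 (adjusted p between 0.0193 and 0.0498). Summed over the 4 genes the level was 89.3 ± 10.0 FPKM in DON and 50.2 ± 4.27 FPKM in vehicle. SEC24D made up 23.0 ± 4.14% in DON and 6.69 ± 2.61% in vehicle of that sum, SEC24C 47.5 ± 3.73% in DON and 53.6 ± 5.90% in vehicle, SEC24A 15.2 ± 0.591% in DON and 20.7 ± 0.566% in vehicle and SEC24B 14.4 ± 0.241% in DON and 19.0 ± 2.75% in vehicle (SD, n = 3 each). The ratio of SEC24D to SEC24C was 0.372, 0.477 and 0.625 in the DON libraries, against 0.0754, 0.112 and 0.202 in the vehicle libraries (difference in log2 ratio 2.01, exact permutation p = 0.1). The ratio of SEC24A to SEC24B differed by -0.055 with overlapping groups (exact permutation p = 0.7).

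**Figure D2:**
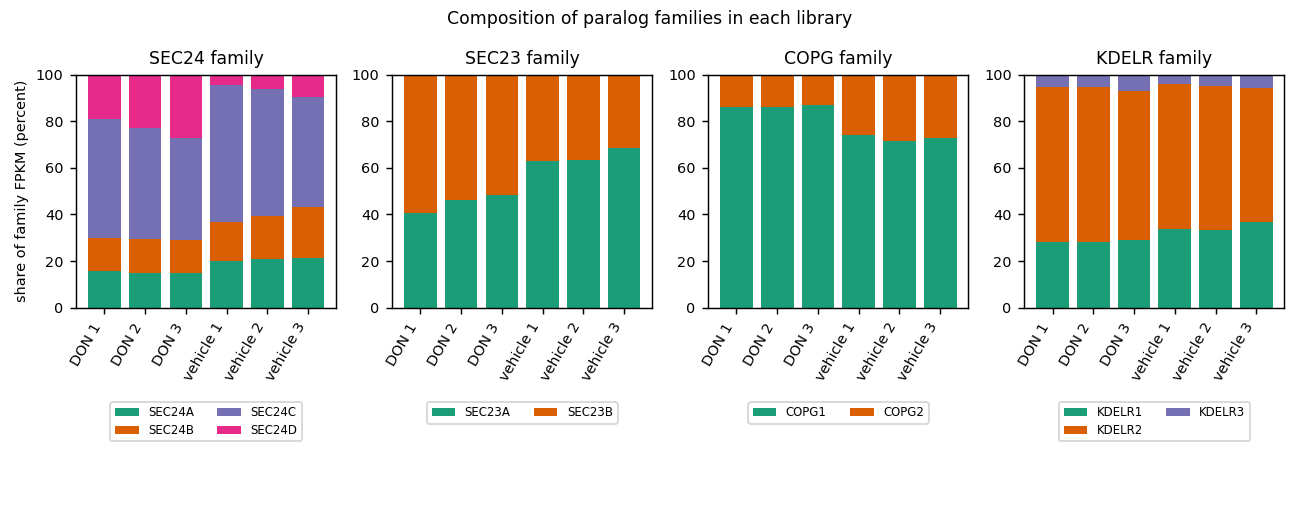
Share of each paralog in the summed FPKM of its family (vertical axis, percent) in each library (horizontal axis, DON libraries left of vehicle libraries). SEC24D takes 19.0 to 27.2% of the SEC24 sum in DON and 4.45 to 9.55% in vehicle. The share of COPG2 in the COPG sum is smaller in DON than in vehicle.

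In all, 13 such pairs of related members were compared by their ratio in each library, and 8 had groups that did not overlap. Ratios of unrelated genes were not computed, and since 24.9% of single tested genes lay wholly above and 26.5% wholly below in DON, the count of 8 shows nothing particular to related members. With 3 libraries against 3 an exact permutation test cannot go below p = 0.1, so no pair could pass a threshold of 0.05. The 8 pairs that did not overlap all have that smallest p (adjusted p = 0.163 over the 13). The ratio of SAR1B to SAR1A differed by 0.15 on the log2 scale (exact permutation p = 0.4) and that of ARF1 to ARF3 by 0.097 (exact permutation p = 0.3), both with overlapping groups.

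Of the 15 cargo receptors 9 were called higher, beside 18.3% of all tested genes. MCFD2 and LMAN1, which together form the receptor for coagulation factors and other glycoproteins, both rose. MCFD2, the calcium-binding soluble partner, had 86.7, 109 and 119 FPKM in the DON libraries, against 38.6, 35.9 and 48.4 FPKM in the vehicle libraries (log2 fold change 1.33 with SE 0.16, adjusted p = 0.000907 by limma). LMAN1, the membrane lectin ERGIC-53, had 41.6, 49.8 and 54.6 FPKM in the DON libraries, against 19.7, 21.8 and 23.3 FPKM in the vehicle libraries (log2 fold change 1.13 with SE 0.12, adjusted p = 0.000651 by limma). In both genes every DON library lay above every vehicle library, and MCFD2 rose 2.56-fold and LMAN1 2.25-fold by ratio of means. The related lectin LMAN2 had 211, 177 and 167 FPKM in the DON libraries, against 140.1, 142 and 129.8 FPKM in the vehicle libraries. It rose 1.35-fold (log2 fold change 0.42 with SE 0.11, adjusted p = 0.0197 by limma), and the groups did not overlap. LMAN2 lost its call without vehicle 1, vehicle 2 or DON 2 and with no filter on low values (adjusted p between 0.0511 and 0.0740). The ratio of LMAN1 to LMAN2 was 0.197, 0.281 and 0.327 in the DON libraries, against 0.140, 0.154 and 0.179 in the vehicle libraries (exact permutation p = 0.1). SURF4, a receptor for several secreted proteins, averaged 216 ± 9.84 FPKM in DON and 136 ± 7.31 FPKM in vehicle (SD, n = 3 each; log2 fold change 0.66 with SE 0.082, adjusted p = 0.00116 by limma).

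The TMED family, the p24 proteins that help load cargo and shape vesicles, had 5 of its 8 listed members called higher and 0 lower. Of all tested genes 18.3% were called higher and 20.6% lower. TMED2 was the most abundant of all 58 genes, with 418, 497 and 547 FPKM in the DON libraries, against 239, 241 and 271 FPKM in the vehicle libraries. Its 3 DON values all lay above 271 FPKM, the highest vehicle value (log2 fold change 0.95 with SE 0.12, adjusted p = 0.00123 by limma). TMED7 had 146, 171 and 174 FPKM in the DON libraries, against 69.2, 68.8 and 77.5 FPKM in the vehicle libraries. The groups lay well apart (log2 fold change 1.17 with SE 0.10, adjusted p = 0.000273 by limma), and 24.0% of its exon bases are shared with the readthrough gene TMED7-TICAM2. TMED10, a partner of TMED2 in p24 complexes, averaged 91.8 ± 3.11 FPKM in DON and 57.6 ± 2.66 FPKM in vehicle (log2 fold change 0.66 with SE 0.078, adjusted p = 0.000916 by limma), and TMED5 averaged 43.2 ± 6.71 FPKM in DON and 27.0 ± 1.96 FPKM in vehicle (log2 fold change 0.65 with SE 0.13, adjusted p = 0.00798 by limma). TMED5 lost its call with no filter on low values (adjusted p = 0.0512). TMED9 had 264, 207 and 185 FPKM in the DON libraries, against 153, 162 and 106 FPKM in the vehicle libraries. It was called higher (log2 fold change 0.64 with SE 0.20, adjusted p = 0.0395 by limma), with the libraries of the first set above the others of their group. TMED9 lost its call without vehicle 1, vehicle 3, DON 1 or DON 2 and with no filter on low values (adjusted p between 0.0671 and 0.192).

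TMED1, TMED3 and TMED4 were not called. TMED4 was the only family member with DON values all below the vehicle values, at 59.96 ± 2.48 FPKM in DON and 68.4 ± 5.77 FPKM in vehicle (log2 fold change -0.19, 95% interval -0.40 to 0.028, adjusted p = 0.146 by limma). TMED3 averaged 53.0 ± 2.20 FPKM in DON and 47.2 ± 3.79 FPKM in vehicle (log2 fold change 0.17, 95% interval -0.044 to 0.37, adjusted p = 0.180 by limma). TMED1 averaged 23.2 ± 3.94 FPKM in DON and 22.3 ± 4.32 FPKM in vehicle (log2 fold change 0.064, 95% interval -0.35 to 0.48, adjusted p = 0.796 by limma). TMED1 passed with the split term (adjusted p = 0.0287), and 51.3% of its exon bases lie opposite exons of DNM2, so its level is uncertain where counting ignored strand. The 8 TMED genes summed to 1141 ± 40.6 FPKM in DON and 685 ± 12.2 FPKM in vehicle. TMED2 held 42.6 ± 4.24% in DON and 36.5 ± 3.14% in vehicle of that sum and TMED7 14.3 ± 0.906% in DON and 10.5 ± 0.873% in vehicle, while TMED4 held 5.26 ± 0.380% in DON and 9.98 ± 0.706% in vehicle.

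ERGIC1, ERGIC2 and ERGIC3, receptors that cycle between the ER and the Golgi, were not called. ERGIC2 had 21.0, 40.1 and 44.8 FPKM in the DON libraries, against 21.9, 19.3 and 42.2 FPKM in the vehicle libraries. Its values followed the split of the libraries more than the treatment, with DON 1 near vehicle 1 and vehicle 2, and DON 2 and DON 3 near vehicle 3. Within the sets its log2 difference was 0.035 and 0.0078. ERGIC2 has the lowest GC content of the 58 transcripts, 34.8%. BET1, the next lowest at 36.0%, went the other way across the split. The next after it, YIPF5 (36.9%), SEC22B (37.1%), SEC23A (37.3%) and TMED5 (37.4%), went the same way as ERGIC2. The part of GC content was not tested. ERGIC3 averaged 236 ± 46.1 FPKM in DON and 235 ± 31.8 FPKM in vehicle (log2 fold change -0.0049, 95% interval -0.39 to 0.39, adjusted p = 0.984 by limma) and ERGIC1 48.5 ± 11.4 FPKM in DON and 45.1 ± 12.5 FPKM in vehicle (log2 fold change 0.11, 95% interval -0.44 to 0.66, adjusted p = 0.735 by limma), so changes within these intervals cannot be told from 0 here.

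**Figure D3:**
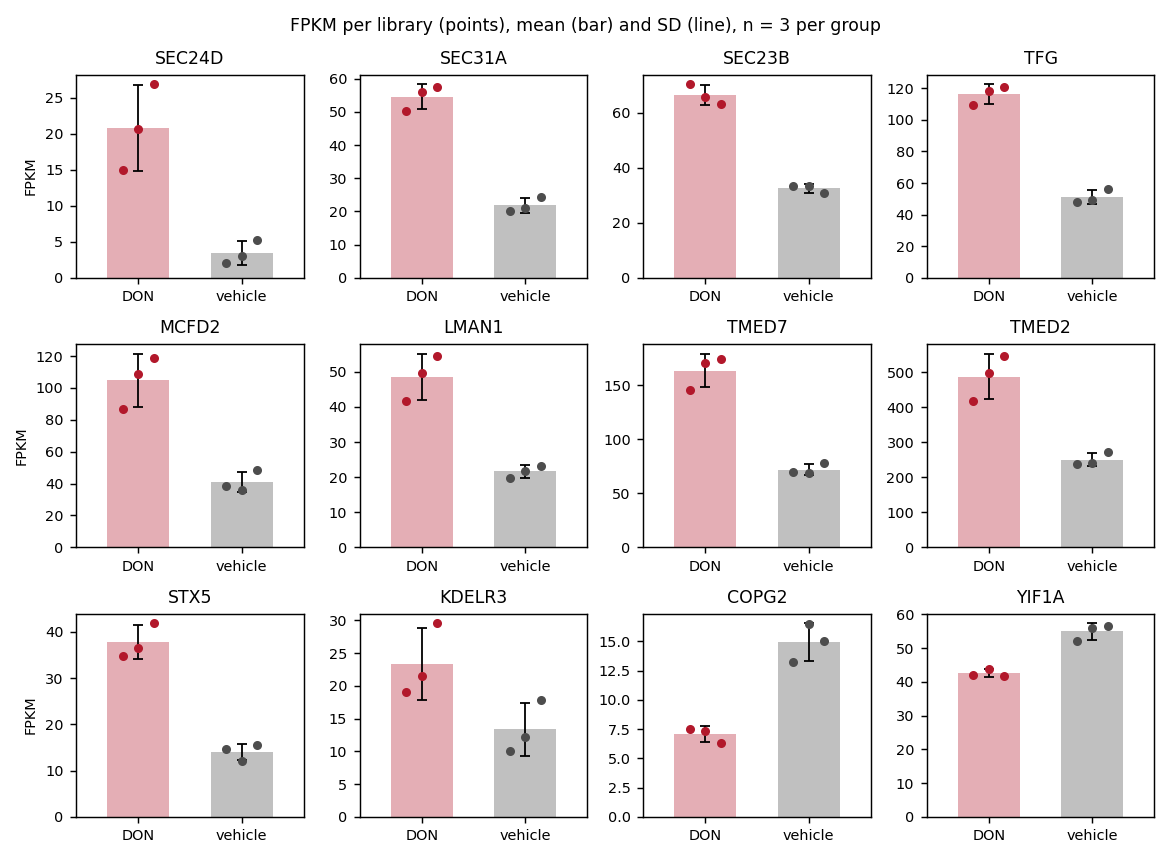
FPKM (vertical axes, each from 0) of 12 members in DON (left of each panel) and vehicle (right), with points for libraries, bars for means and lines for the SD. In 10 of the panels all DON points lie above all vehicle points, and in those of COPG2 and YIF1A they lie below.

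The coatomer of COPI changed unevenly. ARCN1, the delta subunit, had 57.3, 73.0 and 79.7 FPKM in the DON libraries, against 37.5, 39.9 and 49.8 FPKM in the vehicle libraries (log2 fold change 0.71 with SE 0.16, adjusted p = 0.0119 by limma). ARCN1 lost its call without DON 2 and with no filter on low values (adjusted p between 0.0515 and 0.0779). COPA, the alpha subunit, had 60.3, 61.7 and 61.6 FPKM in the DON libraries, against 38.5, 42.8 and 40.4 FPKM in the vehicle libraries. The spread in DON was narrow, and COPA rose 1.51-fold (log2 fold change 0.58 with SE 0.077, adjusted p = 0.00155 by limma). COPB1, the beta subunit and the most abundant coatomer gene, averaged 153 ± 9.74 FPKM in DON and 102 ± 4.29 FPKM in vehicle (log2 fold change 0.57 with SE 0.084, adjusted p = 0.00247 by limma). COPZ1, the zeta subunit, averaged 114 ± 13.2 FPKM in DON and 84.1 ± 6.26 FPKM in vehicle (log2 fold change 0.43 with SE 0.11, adjusted p = 0.0213 by limma). COPZ1 lost its call without vehicle 1, vehicle 2, DON 2 or DON 3 and with no filter on low values (adjusted p between 0.0716 and 0.0895). The beta-prime subunit COPB2 averaged 56.4 ± 1.04 FPKM in DON and 50.4 ± 2.08 FPKM in vehicle (log2 fold change 0.16, 95% interval -0.017 to 0.34, adjusted p = 0.133 by limma) and the epsilon subunit COPE 85.6 ± 7.76 FPKM in DON and 87.9 ± 8.71 FPKM in vehicle (log2 fold change -0.037, 95% interval -0.29 to 0.22, adjusted p = 0.809 by limma), and neither was called.

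The gamma subunit is made from 2 genes, of which COPG2 alone was called. COPG2 had 7.54, 7.34 and 6.29 FPKM in the DON libraries, against 13.3, 16.5 and 15.04 FPKM in the vehicle libraries. Every DON library lay below every vehicle library, a 2.12-fold fall (log2 fold change -0.98 with SE 0.11, adjusted p = 0.000867 by limma), at percentile 4.46 of all tested genes. COPG1, the more abundant of the pair, had 47.4, 45.2 and 42.1 FPKM in the DON libraries, against 37.8, 41.2 and 40.0 FPKM in the vehicle libraries and was not called (log2 fold change 0.17, 95% interval -0.025 to 0.37, adjusted p = 0.143 by limma). The ratio of COPG2 to COPG1 was 0.159, 0.163 and 0.149 in the DON libraries, against 0.351, 0.400 and 0.376 in the vehicle libraries (difference in log2 ratio -1.26, exact permutation p = 0.1). COPG2 made up 13.6 ± 0.508% in DON and 27.3 ± 1.31% in vehicle of the summed gamma level, which stood at 51.9 ± 3.33 FPKM in DON and 54.6 ± 3.35 FPKM in vehicle with overlapping groups. Of the exon bases of COPG2 5.51% lie opposite exons of MEST, a gene with a mean of 12.4 FPKM.

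KDEL receptors return chaperones that end in the KDEL signal to the ER. KDELR2, the most abundant, had 234, 271 and 275 FPKM in the DON libraries, against 160.1, 157 and 179 FPKM in the vehicle libraries (log2 fold change 0.65 with SE 0.10, adjusted p = 0.00279 by limma). KDELR3, the least abundant, had 19.1, 21.5 and 29.5 FPKM in the DON libraries, against 9.97, 12.2 and 17.9 FPKM in the vehicle libraries. Its lowest DON value was close to the highest vehicle value, and it was called higher (log2 fold change 0.78 with SE 0.23, adjusted p = 0.0351 by limma). KDELR3 lost its call without vehicle 1, vehicle 2, DON 2 or DON 3 and with no filter on low values (adjusted p between 0.0817 and 0.182). KDELR1 had 99.7, 115 and 125 FPKM in the DON libraries, against 87.1, 85.0 and 114 FPKM in the vehicle libraries, with overlapping groups (log2 fold change 0.25, 95% interval -0.090 to 0.58, adjusted p = 0.210 by limma). It passed without vehicle 3 (adjusted p = 0.0455). The 3 receptors summed to 397 ± 38.98 FPKM in DON and 274 ± 32.0 FPKM in vehicle, of which KDELR2 held 65.7 ± 1.41% in DON and 60.5 ± 2.63% in vehicle and KDELR1 28.5 ± 0.509% in DON and 34.7 ± 1.81% in vehicle. The ratio of KDELR2 to KDELR1 was 2.35, 2.37 and 2.21 in the DON libraries, against 1.84, 1.84 and 1.56 in the vehicle libraries, and that of KDELR3 to KDELR1 0.191, 0.188 and 0.237 in the DON libraries, against 0.114, 0.143 and 0.156 in the vehicle libraries (exact permutation p = 0.1 each). KDELR3 and KDELR2 kept overlapping ratios (difference in log2 ratio 0.17, exact permutation p = 0.4).

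Among the ARF GTPases, which recruit COPI to membranes, ARF4 alone was called. It had 193, 239.5 and 251 FPKM in the DON libraries, against 109, 118 and 150.2 FPKM in the vehicle libraries (log2 fold change 0.86 with SE 0.15, adjusted p = 0.00521 by limma). ARF1, the GTPase best known for COPI recruitment, had 177, 189 and 199 FPKM in the DON libraries, against 179.6, 184 and 213 FPKM in the vehicle libraries (log2 fold change -0.025, 95% interval -0.26 to 0.20, adjusted p = 0.857 by limma). ARF3 averaged 49.2 ± 1.03 FPKM in DON and 53.8 ± 5.97 FPKM in vehicle (log2 fold change -0.12, 95% interval -0.36 to 0.12, adjusted p = 0.377 by limma) and ARF5 188 ± 27.0 FPKM in DON and 185 ± 27.4 FPKM in vehicle (log2 fold change 0.028, 95% interval -0.32 to 0.38, adjusted p = 0.899 by limma). ARF4 thus held 34.8 ± 3.91% in DON and 22.5 ± 3.18% in vehicle of the summed level of these 4 genes and ARF1 28.8 ± 1.03% in DON and 34.5 ± 2.16% in vehicle. The ratio of ARF4 to ARF5 overlapped between the groups (exact permutation p = 0.2), and the exons of ARF4 overlap the opposite-strand ARF4-AS1 over 11.6% of their bases. For ARF5, 21.9% of the exon bases lie opposite exons of GCC1.

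Of the proteins that switch ARF, ARFGAP3, which ends the GTP-bound state on Golgi membranes, had 68.5, 68.9 and 67.7 FPKM in the DON libraries, against 38.9, 41.3 and 40.3 FPKM in the vehicle libraries. The groups did not overlap, and ARFGAP3 rose 1.70-fold (log2 fold change 0.75 with SE 0.072, adjusted p = 0.000406 by limma). ARFGAP1, with the same activity, had 36.5, 27.0 and 25.0 FPKM in the DON libraries, against 36.9, 34.9 and 27.0 FPKM in the vehicle libraries and was not called (log2 fold change -0.16, 95% interval -0.57 to 0.25, adjusted p = 0.501 by limma). The ratio of ARFGAP3 to ARFGAP1 was 1.88, 2.55 and 2.703 in the DON libraries, against 1.06, 1.18 and 1.49 in the vehicle libraries (exact permutation p = 0.1). GBF1, the exchange factor that activates ARF at the early Golgi, averaged 9.38 ± 0.300 FPKM in DON and 8.25 ± 0.522 FPKM in vehicle (log2 fold change 0.17, 95% interval -0.040 to 0.37, adjusted p = 0.171 by limma).

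Of the Golgi tethers and stacking proteins, all but GORASP1 were called higher, beside 18.3% of all tested genes. USO1, the p115 tether, had 36.2, 50.9 and 61.3 FPKM in the DON libraries, against 21.1, 25.1 and 33.7 FPKM in the vehicle libraries. It was called higher (log2 fold change 0.86 with SE 0.23, adjusted p = 0.0238 by limma) with a wide spread in each group. USO1 lost its call without vehicle 1, vehicle 2, DON 2 or DON 3 and with no filter on low values (adjusted p between 0.0682 and 0.144). GOLGB1, the long coiled-coil tether giantin, averaged 16.1 ± 1.27 FPKM in DON and 10.3 ± 1.17 FPKM in vehicle (log2 fold change 0.59 with SE 0.11, adjusted p = 0.00566 by limma). GOLGA2, the matrix protein GM130, averaged 19.1 ± 2.30 FPKM in DON and 13.2 ± 1.02 FPKM in vehicle (log2 fold change 0.49 with SE 0.11, adjusted p = 0.0137 by limma). GOLGA2 lost its call without DON 2 and with no filter on low values (adjusted p between 0.0572 and 0.0579). GORASP2, a stacking protein, had 69.2, 83.2 and 81.8 FPKM in the DON libraries, against 43.2, 46.8 and 55.8 FPKM in the vehicle libraries (log2 fold change 0.68 with SE 0.12, adjusted p = 0.00575 by limma), whereas its paralog GORASP1 averaged 7.67 ± 0.627 FPKM in DON and 6.92 ± 0.517 FPKM in vehicle and was not called (log2 fold change 0.13, 95% interval -0.11 to 0.37, adjusted p = 0.336 by limma). The ratio of GORASP2 to GORASP1 was 9.35, 9.92 and 11.3 in the DON libraries, against 6.41, 7.19 and 7.44 in the vehicle libraries (exact permutation p = 0.1).

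Of the SNAREs of the ER-Golgi step, all but GOSR1 were called higher, beside 18.3% of all tested genes. STX5, the syntaxin of this fusion step, had 34.8, 36.6 and 41.9 FPKM in the DON libraries, against 14.6, 12.2 and 15.5 FPKM in the vehicle libraries. Its lowest DON value was 34.8 FPKM and its highest vehicle value 15.5 FPKM (log2 fold change 1.36 with SE 0.12, adjusted p = 0.000281 by limma). BET1, which joins STX5 in the SNARE bundle, had 99.0, 86.6 and 74.95 FPKM in the DON libraries, against 47.0, 49.9 and 36.2 FPKM in the vehicle libraries (log2 fold change 0.96 with SE 0.15, adjusted p = 0.00331 by limma). SEC22B averaged 29.1 ± 5.84 FPKM in DON and 17.9 ± 3.03 FPKM in vehicle (log2 fold change 0.66 with SE 0.18, adjusted p = 0.0233 by limma). SEC22B lost its call without vehicle 1, vehicle 2, DON 2 or DON 3 and with no filter on low values (adjusted p between 0.0697 and 0.127). Stretches of SEC22B are up to 98.9% identical to those of 3 annotated pseudogenes, so its level is uncertain. GOSR2 averaged 14.8 ± 1.09 FPKM in DON and 10.9 ± 0.753 FPKM in vehicle (log2 fold change 0.41 with SE 0.095, adjusted p = 0.0144 by limma). GOSR2 lost its call without vehicle 2, DON 2 or DON 3 (adjusted p between 0.0523 and 0.0700). GOSR1 averaged 11.9 ± 0.179 FPKM in DON and 10.6 ± 0.681 FPKM in vehicle and was not called (log2 fold change 0.16, 95% interval -0.041 to 0.36, adjusted p = 0.178 by limma), although its groups did not overlap.

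The 2 Yip family genes, membrane proteins of the early Golgi, moved apart. YIPF5 had 39.8, 44.3 and 46.7 FPKM in the DON libraries, against 27.4, 27.3 and 30.8 FPKM in the vehicle libraries (log2 fold change 0.59 with SE 0.096, adjusted p = 0.00350 by limma). YIF1A had 42.0, 43.9 and 41.7 FPKM in the DON libraries, against 52.1, 56.1 and 56.5 FPKM in the vehicle libraries and fell 1.29-fold (log2 fold change -0.36 with SE 0.077, adjusted p = 0.0105 by limma). Neither gene's groups overlapped.

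**Figure D4:**
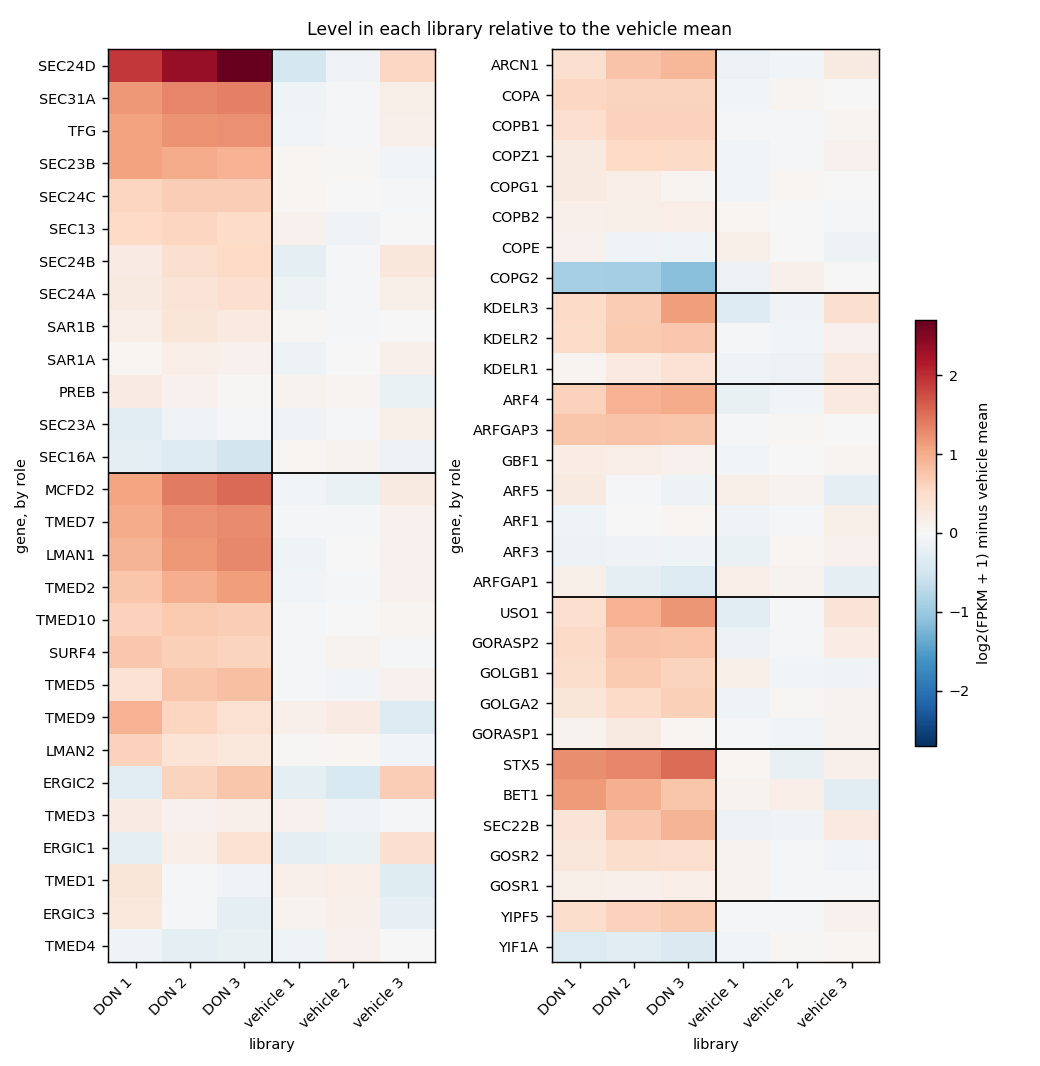
Level of each member in each library as log2(FPKM + 1) minus the vehicle mean of the gene (color), with genes by role down the page and DON libraries left of vehicle libraries. The DON columns are red in most rows, SEC24D most of all, and COPG2 is blue in all 3.

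Changes were also compared by size within both sets of libraries. The median log2 difference over the 58 members was 0.40 for DON 1 against vehicle 1 and vehicle 2, and 0.48 for DON 2 and DON 3 against vehicle 3. The groups of all 37 called members did not overlap, so their sign in each set was fixed in advance and only the sizes are informative. For SEC24D the differences were 2.19 and 1.97, for STX5 1.32 and 1.28, and for COPG2 -0.89 and -1.04. For KDELR3 they were 0.74 and 0.48. A set has only 3 libraries, so these differences carry no test.

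**Figure D5:**
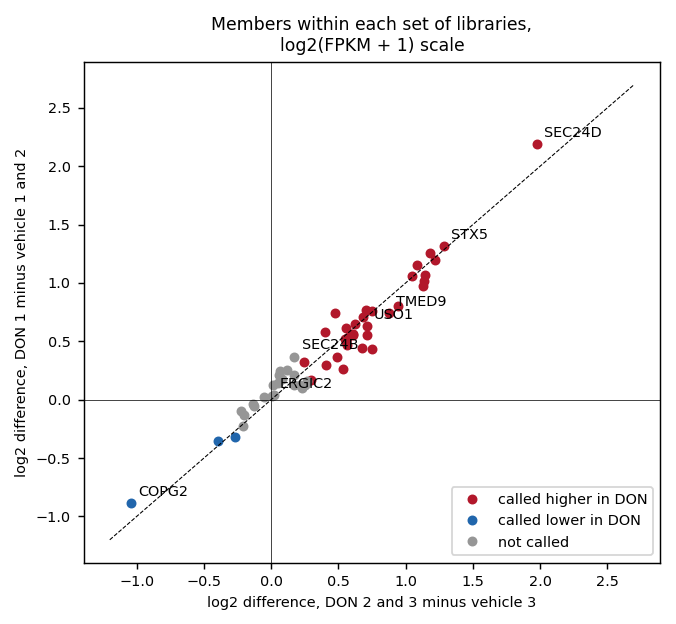
Log2 difference of each member for DON 2 and DON 3 minus vehicle 3 (horizontal axis) and for DON 1 minus vehicle 1 and vehicle 2 (vertical axis), on the log2(FPKM + 1) scale, with the dashed line marking equal values. All 37 called genes lie in the quadrants of equal sign, as they must with groups that do not overlap, and ERGIC2 lies near 0 in both.

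A further 72 genes of the same route were read from the same comparison, and 70 were tested. Of these 25 were higher and 8 lower, 35.7% and 11.4%, beside 18.3% and 20.6% of all tested genes. Their median log2 fold change was 0.20. Without DON 2 the counts were 14 and 4, beside 10.6% of all tested genes higher and 12.9% lower in that fit. Without vehicle 2 they were 16 and 6, beside 13.4% and 14.9%, and without vehicle 1 they were 18 and 5, beside 14.5% and 16.5%. With no filter they were 13 and 6, beside 5.31% and 5.92% of the 26187 genes then tested.

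MIA3, the TANGO1 protein that helps load bulky cargo such as collagen at exit sites, had 17.0, 22.5 and 24.2 FPKM in the DON libraries, against 8.44, 7.24 and 9.64 FPKM in the vehicle libraries. It rose 2.51-fold (log2 fold change 1.23 with SE 0.16, adjusted p = 0.00129 by limma). SEC16B, the shorter relative of SEC16A, had 0.765, 0.779 and 0.708 FPKM in the DON libraries, against 2.97, 2.53 and 3.56 FPKM in the vehicle libraries and fell 4.02-fold (log2 fold change -1.19 with SE 0.13, adjusted p = 0.000702 by limma), the direction of SEC16A. TRAPPC9, of a TRAPP tethering complex, fell and averaged 3.23 ± 0.662 FPKM in DON and 7.83 ± 1.16 FPKM in vehicle (log2 fold change -1.07 with SE 0.15, adjusted p = 0.00211 by limma). The TRAPP genes as a list had 2 of 14 higher and 3 lower (14.3% and 21.4%). In the COG tether, which serves transport within the Golgi, 2 of 8 were higher and 1 lower (25% and 12.5%). Both lists lay near the shares of all tested genes, 18.3% higher and 20.6% lower. COG3 averaged 16.2 ± 0.224 FPKM in DON and 7.60 ± 0.836 FPKM in vehicle and COG6 14.3 ± 0.471 FPKM in DON and 7.78 ± 1.01 FPKM in vehicle (log2 fold change 1.00 with SE 0.099, adjusted p = 0.000455 by limma for COG3, and log2 fold change 0.81 with SE 0.11, adjusted p = 0.00143 by limma for COG6).

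Of 7 other Golgi matrix proteins 5 were higher and 1 lower, beside 18.3% of all tested genes higher and 20.6% lower. TMF1 averaged 20.4 ± 1.22 FPKM in DON and 9.92 ± 0.225 FPKM in vehicle (log2 fold change 0.97 with SE 0.083, adjusted p = 0.000273 by limma), GOLGA5 26.7 ± 4.53 FPKM in DON and 14.5 ± 2.93 FPKM in vehicle (log2 fold change 0.84 with SE 0.17, adjusted p = 0.00862 by limma) and GOLGA3 22.3 ± 3.22 FPKM in DON and 12.0 ± 1.39 FPKM in vehicle (log2 fold change 0.84 with SE 0.13, adjusted p = 0.00305 by limma). All 3 of the other Golgi SNAREs (YKT6, BET1L and STX17) were called higher, and 3 of 8 genes of the tether and SNAREs that receive COPI vesicles at the ER were higher with 0 lower.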

How the data were processed

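Per the labels' protocols, poly(A) RNA of AsPC-1 cells was made into 6 directional libraries and sequenced as single 75 bp reads. Per the submitters' processing notes, STAR and the hg19 build were used. How FPKM were computed, with which annotation and whether by strand, is not given in the sources used here. Deposited values are the authors' FPKM per gene symbol, on a linear scale. The columns named control were taken as vehicle. In 41 rows, 72 cells held a failure mark, and these genes were not tested. Of 26228 rows, 11471 had at least 1 FPKM in at least 3 libraries. These were fitted as log2(FPKM + 1) with limma 3.58.1 (R 4.3.3, intensity trend, no block), two-sided, with Benjamini-Hochberg adjustment over all of them at 0.05; fold changes on that scale understate changes of low genes. The fit was tested on simulated data with independent noise in each library. Those data lacked the split of the libraries, so they cannot show how the fit behaves under it. Fold values are ratios of mean FPKM. Ratios of related genes used an exact permutation test (scipy 1.17.1). Tables and plots used Python 3.11.15, pandas 2.3.3, numpy 2.4.6 and matplotlib 3.10.9. Exon overlaps and GC content came from GENCODE transcripts of another build, by symbol, and promoter windows from RefSeq (GRCh38.p14), whose coordinates were not mixed with hg19. The members, lists, pairs and motifs were chosen with earlier results of these data known. The naming rule took, per role, the largest called changes, the most abundant gene, the KDEL receptors and all paired genes, and the 8 largest called changes among the other pathway genes. Protein sequences were not used here.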

Additional observations from a re-analysis of the deposited data

How the results depend on the processing

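The fit was repeated without each library, with a replicate block, with a term for the split of the libraries, under quantile or median-of-ratios scaling, with a minimum of 5 FPKM or none, with 0.1 as the pseudocount and without the intensity trend. Of the 37 called members, 24 kept their call in all 14 fits and 0 reversed, and 5 of the 21 others passed in at least 1. Members called higher numbered 23 to 34 and lower 2 to 3 when a library was left out, lowest without DON 2, and 24 and 2 with no filter. The shares of all tested genes were 10.6% to 18.6% higher and 12.9% to 22% lower when a library was left out. With no filter they were 5.31% and 5.92%. Over all genes, no filter gave 2942 calls (1391 higher and 1551 lower) and 13 other pathway genes called higher, and leaving out a library gave 2697 to 4656 calls (1212 to 2133 higher and 1485 to 2523 lower). Other pathway genes called then ranged over 14 to 27 higher and 4 to 10 lower. The split term moved the median log2 fold change of cargo receptors to 0.56 and of ARF genes to 0.15. With it 37 members were called higher and 4 lower, beside 25.1% of all tested genes higher and 27.4% lower. The members gained were PREB, SEC23A, SEC24B and TMED1. Since the split was read from these same values, calls with its term may be too many. Leaving out a library gave medians of 0.28 to 0.54 for COPII and 0.57 to 0.64 for cargo receptors, and a SEC24A to SEC24B difference of -0.14 to 0.024. Called members had groups that did not overlap, so leaving out a library or changing the pseudocount, block or trend could not turn their sign. Among the members, signs turned only for genes that were not called. ERGIC3 stood at 0.0098 with median-of-ratios scaling, 0.049 with quantile normalization and 0.13 with the split term, ARF1 at 0.036 with quantile normalization, and ERGIC1 and COPE at -0.091 and 0.031 with the split term. Leaving out a library gave ranges of -0.15 to 0.12 for ERGIC3, -0.043 to 0.32 for ERGIC1, -0.11 to 0.037 for COPE, -0.10 to 0.16 for TMED1, -0.072 to 0.050 for ARF1 and -0.099 to 0.11 for ARF5. The causes were not tested. Whether replicate numbers pair the libraries is not stated. Deviations of same-numbered libraries correlated at 0.25, -0.18 and 0.50 across genes. DON 1 correlated best with vehicle 2, and DON 2 and DON 3 with vehicle 3. These correlations follow the split of the libraries, so they cannot settle whether libraries were paired. The replicate block gave 5414 calls over all genes (22.2% higher and 25% lower), 34 members higher and 3 lower, with SAR1B lost and SEC24B gained. Depth is unknown, so no floor can be set on low values.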
